A study of Mus musculus with 110 samples.

Results

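Interscapular brown adipose tissue (iBAT) of mice fed a methionine-restricted diet at room temperature (MetR_RT) was compared with that of mice fed the control diet at the same temperature (Ctrl_RT). The libraries were chosen by tissue and by the group their titles name, which gave 6 Ctrl_RT and 7 MetR_RT libraries, 13 of the 110 in the series. Of the genes in the count table, 23915 had 10 or more counts in total over the iBAT libraries of all 4 groups used and were tested. All mice were wild-type C57BL/6N males, housed singly and 16 weeks old at the end of the study. Both diets lacked cysteine. The control diet held 0.86% methionine and the restricted diet 0.12%, and each was fed for 7 days at 22 °C. The cold-exposed groups (Ctrl_CE and MetR_CE) ate these diets and then spent 24 h at 4 °C, and the inguinal white fat (iWAT) of the room temperature groups came from the same mice as the iBAT. Each library is the polyadenylated RNA of 1 mouse's depot, so a level is an average over all cell types in the tissue.

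Brown adipocytes burn fatty acids and glucose, and uncoupling protein 1 in their mitochondria turns the proton gradient into heat. Noradrenaline switches this on through beta-adrenergic receptors and cAMP, and room temperature is already cool for a mouse. Methionine is an essential amino acid and the source of cysteine, which both diets lacked, and cells that run short of amino acids translate the transcription factor ATF4, which drives amino acid synthesis and folate genes.

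The brown adipocyte markers matched the label. Ucp1 stood at 5820, 6900 and 8450 normalized CPM (counts scaled by library size, given as the lowest, median and highest of the Ctrl_RT libraries), and the other brown adipocyte markers Cidea, Zic1, Lhx8, Cox7a1, Cox8b, Elovl3 and Ppargc1a were detected in all 13. Among white adipocyte markers, the patterning gene Hoxc9 was at most 0.138 CPM in any library and Hoxc10 was not among the genes tested. The others were detected in every Ctrl_RT library. Retn stood at 21.4 to 32.9 CPM, Slc7a10 at 10.4 to 15.3 CPM, Lep at 2.12 to 30.5 CPM and Nnat at 2.86 to 10.4 CPM. MetR_RT libraries were shallower, with 18251635 to 22407601 counts against 22536731 to 27806620 in Ctrl_RT, and the ranges did not overlap (exact two-sided permutation test, adjusted p = 0.00233 over 6 library measures). They also had fewer genes with a count, 21113 to 22003 against 22268 to 23522 (exact permutation test, adjusted p = 0.00233). With all counts thinned to the shallowest library, 517 genes were called where the full counts gave 599. Summed skeletal muscle genes ran from 59.4 to 3138 CPM in Ctrl_RT and from 58.2 to 939 CPM in MetR_RT, and Ctrl_RT replicates 3 and 5 stood highest. Ctrl_RT replicate 5 also held the most albumin mRNA, a liver transcript. The library titled MetR_RT replicate 1 carries a treatment tag of the control group, as a run of tags is shifted by 1 library. Without it 606 genes were called, and 462 with groups taken from the tag. Its Adcy5 was 3.89 CPM and its Kng2 118 CPM, both outside the range of the titled Ctrl_RT libraries. Its Hcar1 (22.4 CPM) and Me1 (1340 CPM) lay within that range. The fit that called these genes counted the library as MetR_RT, so their values cannot decide between title and tag. The shift also places the library titled Ctrl_CE replicate 1 in MetR_RT. There Ucp1 was 13300 CPM and Elovl3 1730 CPM, above every iBAT library titled as room temperature.

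Methionine restriction changed more genes downward than upward in brown fat. With both an adjusted p under 0.05 (edgeR quasi-likelihood test) and a change of 1.5-fold or more either way required, 599 of the 23915 genes were called, 2.5% of those tested. Of these, 128 were higher in MetR_RT (0.535% of genes tested) and 471 were lower (1.97%). The counts of each gene list below stand beside these shares. A further 1027 genes passed the adjusted p with a smaller fold change, 565 of them higher and 462 lower, so the excess of lower genes was among the larger changes. Over all genes tested, the log2 fold change had a median of -0.04. In 135 of the 599 the mean was under 1 CPM in both groups. The 2 groups did not overlap for 36.1% of the called genes and for 2.77% of all genes tested. Overlap was read from the same libraries that gave the calls, so it describes the genes below and is no further test of them.

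**Figure D1:**
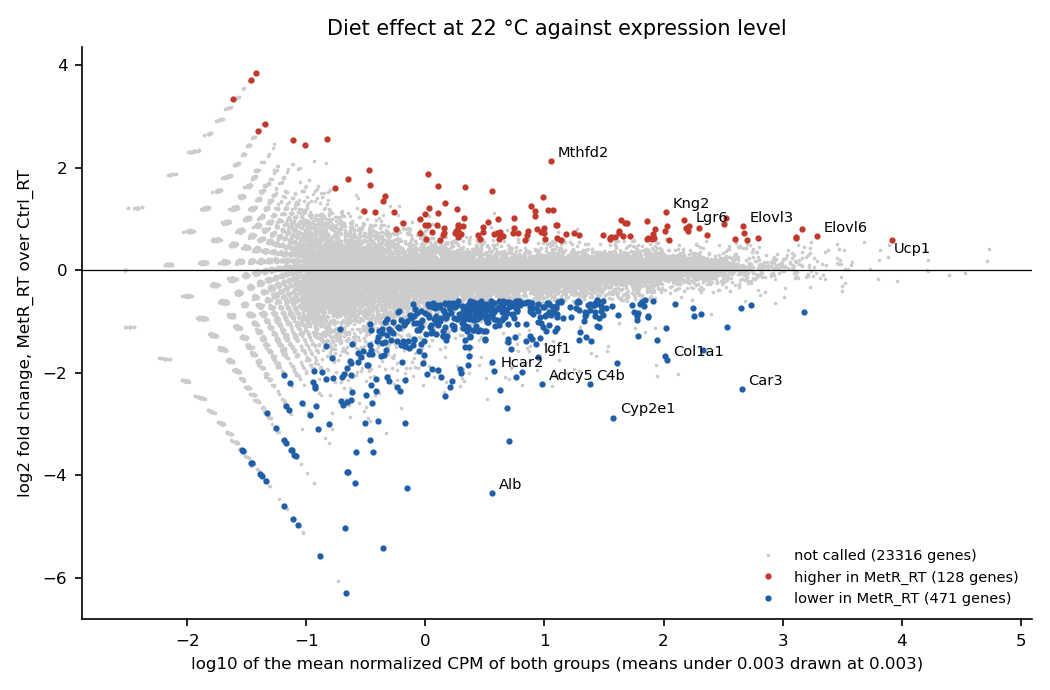
Log2 fold change of MetR_RT over Ctrl_RT (vertical) against the log10 of the mean normalized CPM (horizontal), 1 point per gene, with 128 genes called higher in red and 471 called lower in blue. Lower genes reach much larger fold changes than higher genes, and Ucp1 lies close to 0 at the far right.

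Enzymes were prominent among the expressed genes that fell most. Car3, a carbonic anhydrase abundant in fat, stood at 532, 612 and 1390 CPM in Ctrl_RT and at 114, 143 and 224 CPM in MetR_RT (log2 fold change -2.32 ± 0.32 SE, adjusted p = 4.24e-05). Cyp2e1, a cytochrome P450, stood at 42.2, 56.6 and 113 CPM against 3.73, 6.01 and 16.4 CPM (-2.87 ± 0.50, adjusted p = 0.000583). In both genes every MetR_RT library lay below every Ctrl_RT library. The transcription factor Mycl (-2.68), the B cell chemokine Cxcl13 (-2.44), the protease inhibitor Serpina3n (-2.33), the Wnt antagonist Sfrp2 (-2.28), the unnamed gene ENSMUSG00000120173.1 (-2.36) and the adenylyl cyclase Adcy5 (-2.22) were also among the expressed genes that fell most, besides 3 liver transcripts. These were Alb (-4.35), Serpina3k (-4.24), which has close paralogs that make its count uncertain, and Apoa1 (-2.98). All 3 were highest in Ctrl_RT replicate 5, where Alb was 38.2 CPM against a group median of 0.335 CPM, and without that library Alb and Apoa1 were not called.

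The rises were smaller. Mthfd2, a mitochondrial folate enzyme, stood at 3.18, 4.1 and 5.56 CPM in Ctrl_RT and at 9.48, 14.4 and 33.5 CPM in MetR_RT (2.13 ± 0.39, adjusted p = 0.000786), with no overlap. Kng2, a kininogen, had the smallest p of all genes. It stood at 51, 66.9 and 74.3 CPM against 118, 139 and 165 CPM (1.14 ± 0.09, adjusted p = 3e-09). Every MetR_RT library was above every Ctrl_RT library for Kng2, and likewise for the actin-bundling Vil1 (1.55), the anion channel subunit Lrrc8b (1.18), the predicted gene Gm15241 (1.17), 6820408C15Rik (1.31) and the immunoglobulin heavy chain Ighm (1.26). The G protein regulator Rgs16 (1.88), Pimreg (1.65), the prolactin receptor Prlr (1.62), the clock output factor Dbp (1.42), the secreted phospholipase Pla2g2e (1.21) and the GABA receptor subunit Gabbr2 (1.19) rose with overlapping groups. Gabbr2 had an adjusted p of 0.0439 and lost its call with thinned counts. It was also lost without any 1 of Ctrl_RT replicates 1, 2, 4, 5 and 6 and MetR_RT replicates 1, 2, 3, 4 and 7.

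**Figure D2:**
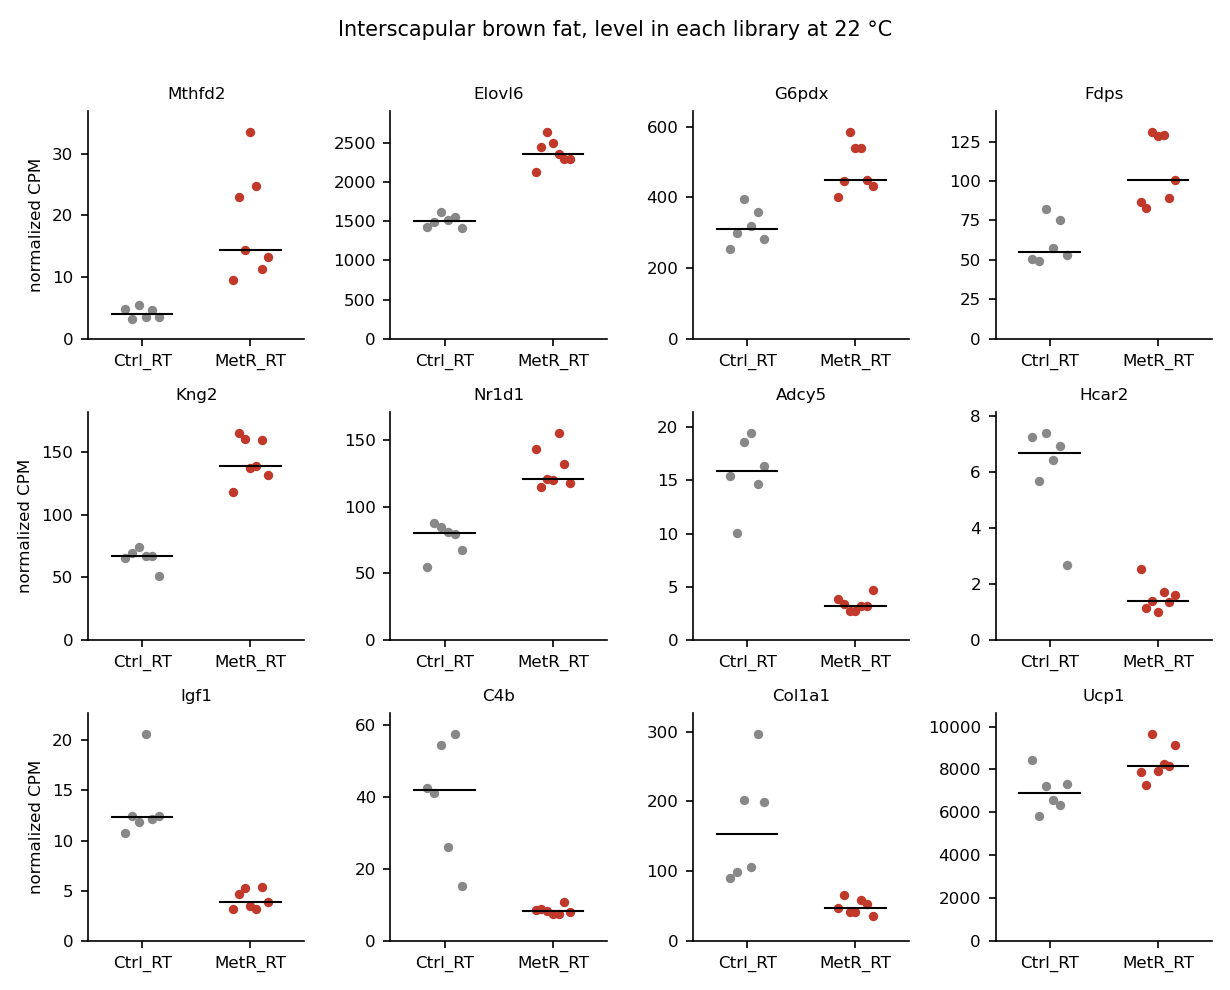
Normalized CPM of 12 genes in each of the 6 Ctrl_RT (grey) and 7 MetR_RT (red) libraries, with the group median as a black line and each axis starting at 0. Groups separate fully for every gene shown except Ucp1, where the Ctrl_RT range of 5820 to 8450 CPM and the MetR_RT range of 7290 to 9650 CPM overlap.

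Of 30 tested brown adipocyte and thermogenesis genes, 1 was called higher (Elovl3) and 2 lower (Dio2 and Fabp3), beside 2.5% of all genes called in either direction, and their median log2 fold change was 0.04 against -0.04 for all genes. Ucp1 in MetR_RT stood at 7290, 8160 and 9650 CPM, with a log2 difference of 0.26 ± 0.08 (adjusted p = 0.0357) that was under the fold threshold, and 5 of the 7 libraries lay within the Ctrl_RT range. Elovl3, an elongase of very long fatty acids that marks active brown fat, stood at 264.9, 328 and 397 CPM in Ctrl_RT and at 505, 584 and 714 CPM in MetR_RT (0.85 ± 0.13, adjusted p = 7.5e-05), with no overlap. Dio2, the deiodinase that activates thyroid hormone inside brown adipocytes, went the other way, at 44.8, 70.7 and 124 CPM against 20.8, 47.5 and 53.6 CPM (-0.98 ± 0.24, adjusted p = 0.012), and the groups overlapped. With groups taken from the treatment tag, which places Ctrl_CE replicate 1 (328 CPM) in MetR_RT, its value turned to 0.26 and was not called. Fabp3, a fatty acid binding protein, fell by 0.74 on the log2 scale (adjusted p = 0.0389), with overlapping groups. Its call was lost without any 1 of Ctrl_RT replicates 1, 4 and 6 and MetR_RT replicates 2, 3, 4, 5 and 6. Cox7a1, a subunit of cytochrome c oxidase, passed the adjusted p with a change under the fold threshold (0.33 ± 0.07, adjusted p = 0.00524), and its groups did not overlap. The lipid droplet protein Cidea passed it too with a fall under the fold threshold (-0.33 ± 0.06, adjusted p = 0.00171), and its groups did not overlap either. The coactivator Ppargc1a (0.10 ± 0.20) and the fate regulator Prdm16 (-0.17 ± 0.09) did not pass the test. None of the 76 nuclear and 13 mitochondrial respiratory chain subunits tested, and none of 21 genes of the TCA cycle, was called, although 19 of those 21 had a value above 0.

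Of 42 tested members of beta-adrenergic and cAMP signaling, 5 were called lower, among them Adcy5, Nr4a3, Arrb1 and Gng7, and 1 higher (the soluble adenylyl cyclase Adcy10), with a median of -0.22. Of all genes tested, 1.97% were called lower and 0.535% higher. Adcy5 stood at 10, 15.9 and 19.5 CPM in Ctrl_RT and at 2.68, 3.17 and 4.65 CPM in MetR_RT (-2.22 ± 0.21, adjusted p = 1.83e-07). The groups lay far apart, with the highest MetR_RT library well under the lowest Ctrl_RT library. Arrb1, the beta-arrestin that uncouples and internalises receptors, stood at 83.7, 92 and 120 CPM against 40.3, 53.3 and 60.4 CPM (-0.88 ± 0.09, adjusted p = 7.77e-07), also with no overlap. The G protein subunit Gng7 (-0.61) and Nr4a3, an orphan nuclear receptor induced by cAMP (-1.85), overlapped between groups. Adrb3, the main adrenergic receptor of rodent fat, had a log2 difference of -0.38 ± 0.15 that did not pass the test (adjusted p = 0.128).

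Fat senses metabolites through G protein-coupled receptors. Of the 14 tested members of a list of 16, 3 were called lower (1.97% of all genes were) and 0 higher, with a median of -0.31. Hcar2, the receptor of ketone body beta-hydroxybutyrate and of niacin, stood at 2.66, 6.66 and 7.39 CPM in Ctrl_RT and at 1, 1.4 and 2.55 CPM in MetR_RT (-1.96 ± 0.23, adjusted p = 4.15e-06). Hcar1, the lactate receptor that restrains lipolysis, stood at 19.1, 38.6 and 43 CPM against 10.6, 12 and 22.4 CPM (-1.38 ± 0.18, adjusted p = 1.73e-05). Ffar2, a receptor of short-chain fatty acids, fell by 1.37 on the log2 scale. Groups did not overlap for Hcar2 and Ffar2, and 1 MetR_RT library lay within the Ctrl_RT range for Hcar1.

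Of 35 ATF4 targets and stress genes tested, 1 was called higher and 0 lower, where 2.5% of all genes were called in either direction. It was the transcription factor Atf5, at 267.1, 350 and 485 CPM in Ctrl_RT and 396, 546 and 816 CPM in MetR_RT (0.73 ± 0.18, adjusted p = 0.0103). The asparagine synthetase Asns passed the adjusted p just under the fold threshold (0.57 ± 0.12, adjusted p = 0.00291), and its MetR_RT libraries, at 59.7 to 77.6 CPM, were all above the 38.9 to 54.7 CPM of Ctrl_RT. Atf4 mRNA (0.29 ± 0.14), the pseudokinase Trib3 (0.23 ± 0.11), and the stress hormones Fgf21 (0.20 ± 0.23) and Gdf15 (0.05 ± 0.44) did not pass the test. Of 21 serine synthesis and folate enzymes, Mthfd2 alone was called, and the serine synthesis enzymes Phgdh (0.02 ± 0.31) and Psat1 (0.35 ± 0.34) did not pass. In the methionine cycle and transsulfuration list, 3 of 17 tested members were called lower and 0 higher, where 1.97% of all genes were called lower. Nnmt, which spends methyl groups on nicotinamide, stood at 6.41, 8.23 and 21.5 CPM against 1.17, 2.45 and 4.2 CPM (-1.99 ± 0.36, adjusted p = 0.000803). With groups taken from the treatment tag, which places Ctrl_CE replicate 1 (90.5 CPM) in MetR_RT, its value turned to 0.69 and was not called. The creatine enzyme Gamt fell by 0.76 on the log2 scale. The third, the liver enzyme Mat1a, had 4.95 CPM in Ctrl_RT replicate 5 and at most 0.117 CPM in the other Ctrl_RT and MetR_RT libraries. It was not called without Ctrl_RT replicate 5. The fat isoform Mat2a (-0.14 ± 0.07) and the transsulfuration enzymes Cbs (-0.67 ± 0.37) and Cth (0.05 ± 0.19) did not pass. Amino acid transporters gave 3 lower calls of 31 tested, the neutral amino acid transporters Slc7a10 (-0.91) and Slc43a1 (-0.75) and the glutamate transporter Slc1a3 (-0.59). Got1, the cytosolic aspartate aminotransferase, was the only call among 21 genes of polyamine synthesis and methionine salvage (0.65), and among 14 of cysteine oxidation and sulfide it was joined by 1 lower call, the sulfurtransferase Tst (-0.59).

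Of 37 tested genes of de novo lipogenesis and elongation, 6 were called higher (0.535% of all genes were) and 0 lower, with a median of 0.17. Elovl6, which extends palmitate, stood at 1410, 1500 and 1610 CPM in Ctrl_RT and at 2130, 2350 and 2640 CPM in MetR_RT (0.66 ± 0.07, adjusted p = 2.37e-06), with no overlap. Acly, which makes cytosolic acetyl-CoA from citrate, stood at 4600, 6610 and 8300 CPM against 7780, 8860 and 12800 CPM (0.59 ± 0.15, adjusted p = 0.0112) and lost its call without any 1 of Ctrl_RT replicates 1, 2 and 6 and MetR_RT replicates 3, 4 and 5. The citrate carrier Slc25a1 was the remaining call among the 6 besides Elovl3, Me1 and Scd3. Malic enzyme Me1 (0.80 ± 0.15) rose too, as did Scd3 (adjusted p = 0.00828), whose low count is uncertain because it resembles the far more abundant Scd1. Fatty acid synthase Fasn passed the adjusted p with a smaller change (0.42 ± 0.09, adjusted p = 0.0025), and Scd1, among the most abundant mRNAs of the tissue at 31200 to 76300 CPM, did not pass (0.19 ± 0.21). Ctrl_RT replicate 1 had the lowest sum of this list, 87359 CPM against 122032 to 138978 CPM in the other Ctrl_RT libraries, and 4 members were called higher without it. The enzymes of the pentose phosphate pathway G6pdx (0.61 ± 0.10) and Pgd (0.66 ± 0.10) rose with non-overlapping groups. They belong to a list of 38 tested glutathione genes and NRF2 targets in which 5 were called higher and 0 lower, together with Me1, the glutathione synthesis subunit Gclm (0.63 ± 0.10) and the heme oxygenase Hmox1 (0.88 ± 0.19). The sum of that list was 6161 to 7368 CPM in Ctrl_RT and 7285 to 9276 CPM in MetR_RT. Its rise lay in Me1 (means of 1050 and 1830 CPM), Pgd (996 and 1570 CPM) and G6pdx (318 and 485 CPM). The median log2 fold change of the list was 0.09.

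Of 34 tested genes of cholesterol synthesis and uptake, 5 were called higher, all enzymes of the pathway, and 1 lower, the lipoprotein receptor Scarb1, with a median of 0.15. Of all genes tested, 0.535% were called higher and 1.97% lower. Fdps, which makes farnesyl diphosphate, stood at 49.5, 55.3 and 82.2 CPM in Ctrl_RT and at 82.6, 101 and 131 CPM in MetR_RT (0.80 ± 0.14, adjusted p = 0.000725). Idi1 (0.74 ± 0.15), Hsd17b7 (0.59 ± 0.12), Nsdhl (0.61 ± 0.13) and Pmvk (0.60 ± 0.14) followed. Groups did not overlap for Fdps, Idi1 and Hsd17b7. The squalene epoxidase Sqle (0.48 ± 0.17, adjusted p = 0.094) did not pass. The higher calls were 2 without Ctrl_RT replicate 1 and 3 without MetR_RT replicate 3. Scarb1 stood at 74.1, 83.8 and 100 CPM against 44.8, 53.5 and 58.6 CPM (-0.69 ± 0.08, adjusted p = 3.86e-06).

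Promoters of these cholesterol enzymes that rose are shown because sterol genes are classically driven by SREBP2 together with NF-Y, which binds CCAAT boxes. The 250 bases before the start site, from RefSeq on GRCm38.p6, are written in the direction of transcription, with CCAAT on either strand (CCAAT or ATTGG) in capitals. The windows are chr1:169969206-169969455 on the minus strand for Hsd17b7, and on the plus strand chr3:89454291-89454540 for Pmvk, chr13:8885356-8885605 for Idi1 and chrX:72918271-72918520 for Nsdhl.
Hsd17b7: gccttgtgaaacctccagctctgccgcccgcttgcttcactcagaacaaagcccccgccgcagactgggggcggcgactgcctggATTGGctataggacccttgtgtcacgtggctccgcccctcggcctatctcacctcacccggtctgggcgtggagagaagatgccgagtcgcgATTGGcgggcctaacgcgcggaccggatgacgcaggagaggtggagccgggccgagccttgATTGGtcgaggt
Pmvk: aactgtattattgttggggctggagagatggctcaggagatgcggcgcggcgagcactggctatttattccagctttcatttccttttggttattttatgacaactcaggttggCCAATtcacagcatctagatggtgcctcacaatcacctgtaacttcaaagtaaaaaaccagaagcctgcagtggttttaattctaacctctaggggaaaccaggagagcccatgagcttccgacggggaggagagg
Idi1: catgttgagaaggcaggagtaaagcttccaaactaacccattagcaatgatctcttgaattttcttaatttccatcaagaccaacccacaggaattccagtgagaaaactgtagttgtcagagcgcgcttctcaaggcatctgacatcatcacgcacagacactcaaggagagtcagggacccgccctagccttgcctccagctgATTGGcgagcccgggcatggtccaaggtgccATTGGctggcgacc
Nsdhl: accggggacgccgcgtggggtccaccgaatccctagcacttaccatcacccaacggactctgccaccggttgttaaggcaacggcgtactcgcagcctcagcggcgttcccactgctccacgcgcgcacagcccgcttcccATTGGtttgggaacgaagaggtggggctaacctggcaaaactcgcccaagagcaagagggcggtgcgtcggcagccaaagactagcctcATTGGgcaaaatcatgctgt
Hsd17b7 held 3 matches, Idi1 and Nsdhl 2 each, and Pmvk 1, while a second start of Pmvk in the same table held 0. CCAAT was found in a promoter window of 4 of the 4 called enzymes with an entry, of 14 of 19 other cholesterol genes with an entry (73.7%), and of 5320 of the 13695 tested genes with an entry (38.8%). A match describes the letters of the window and not binding.

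Dgat2, which adds the last fatty acid to triglyceride, stood at 1410, 1930 and 2250 CPM in Ctrl_RT and at 952, 1060 and 1300 CPM in MetR_RT (-0.81 ± 0.13, adjusted p = 0.000295), with no overlap, and the monoacylglycerol acyltransferase Mogat1 rose (0.60 ± 0.13). These were the calls among 26 genes of triglyceride synthesis, where 2.5% of all genes were called. Of 30 genes of fatty acid uptake, 1 was called higher (Fabp5) and 2 lower (Apoe and Fabp3). Apolipoprotein E fell from 371, 457 and 559 CPM to 134, 222 and 281.5 CPM (Apoe, -1.11 ± 0.23, adjusted p = 0.00258), while Fabp5, a fatty acid binding protein, rose (0.85 ± 0.17). Lipoprotein lipase Lpl did not pass (-0.30 ± 0.11, adjusted p = 0.0969). Of 19 lipolysis genes and perilipins, 2 were called lower, both acting on lipid droplets. The phospholipase Pla2g16 was at 133, 152 and 174 CPM against 91.1, 93.1 and 104 CPM (-0.66 ± 0.06, adjusted p = 1.41e-07), and G0s2, an inhibitor of the lipase ATGL, fell by 0.85 on the log2 scale. ATGL itself, Pnpla2, had a log2 difference of -0.12 ± 0.05. Of 41 genes of fatty acid oxidation and ketone bodies, 1 was called higher, the peroxisomal oxidase Acox2 (1.01), and 1 lower.

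Among 52 genes of glucose uptake, glycolysis and pyruvate use, 2 were called higher (0.535% of all genes were) and 2 lower (1.97%). Pdk1, a kinase that holds pyruvate dehydrogenase back, stood at 159, 179 and 196 CPM in Ctrl_RT and at 276.4, 285.9 and 304 CPM in MetR_RT (0.68 ± 0.08, adjusted p = 4.15e-06). The fructose transporter Slc2a5 (0.64) was the other higher call. The glycogen phosphatase subunit Ppp1r3g (-1.90) was among the lower calls, at no more than 0.55 CPM in any Ctrl_RT or MetR_RT library (edgeR adjusted p = 0.0499). It lost its call with other size factors, with no filter and with all 27 iBAT libraries in the fit. The summed level of the list was 31100 to 35910 CPM in Ctrl_RT and 37220 to 41420 CPM in MetR_RT, with no overlap, and 35 of the 52 members had a value above 0.

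Extracellular matrix and fibroblast lists held many lower calls. Of 39 collagens tested, 12 were called lower (1.97% of all genes were) and 0 higher, with a median of -0.65. Col1a1 stood at 90.7, 153 and 296.3 CPM in Ctrl_RT and at 35.5, 46.9 and 65.9 CPM in MetR_RT (-1.75 ± 0.29, adjusted p = 0.000276). Col1a2 (-1.66 ± 0.26), Col3a1 (-1.56 ± 0.27) and Col5a1 (-1.08 ± 0.17), the partners of fibrillar collagen, fell likewise, and no Ctrl_RT library overlapped a MetR_RT library for any of the 4. Of 52 other matrix proteins and enzymes, 11 were lower, among them the proteases Mmp3 (-1.92), Mmp2 (-1.19) and Adamts2 (adjusted p = 8.27e-05) and the protease inhibitor Timp1 (-1.70), and 1 was higher. That one was Prelp, a leucine-rich proteoglycan, at 192, 217 and 260.8 CPM against 347, 431 and 472 CPM (0.90 ± 0.10, adjusted p = 2.61e-06). Of 21 fibroblast and preadipocyte markers, 9 were lower and 0 higher, with a median of -0.62, led by Clec3b (-1.12), Dpt (-0.99), Trpv1 (-0.92) and Mfap5 (-0.89). Smooth muscle and pericyte markers gave 4 lower calls of 14, Cnn1 (-0.87), Tagln (-0.80), Acta2 (-0.78) and Lmod1 (-0.63).

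Of 29 complement genes, 13 were called lower (1.97% of all genes were) and 0 higher, with a median of -0.68, and 27 of 29 had values below 0. C4b, the complement component of the classical and lectin pathways, stood at 15.4, 42 and 57.5 CPM in Ctrl_RT and at 7.41, 8.27 and 10.7 CPM in MetR_RT (-2.22 ± 0.36, adjusted p = 0.000208). C7 (-1.53 ± 0.28) of the membrane attack complex and the proteases C2 (-1.35 ± 0.25) and Cfb (-1.39 ± 0.33) followed, and C6 (-2.83 ± 0.78) was called at no more than 0.472 CPM in any library. Of 28 tested macrophage markers of 29, 10 were lower and 0 higher, with a median of -0.63, led by Lyve1 (-1.50), Gpnmb (-1.49), Itgam (-1.17) and Clec10a (-1.16). Their summed level was 127 to 209 CPM in Ctrl_RT and 73.3 to 133 CPM in MetR_RT. Chemokines and cytokine receptors gave 5 lower calls of 46 and 0 higher, Cxcl13, the chemokine scavenger of venules Ackr1 (-1.66), Ccl9 (-1.11), Ccl6 (-1.09) and Il10ra (-0.92). Acute phase and iron proteins gave 5 of 26, the transferrin Trf (-1.35), the metalloreductase Steap4 (-1.12), Lbp (-1.02), haptoglobin Hp (-0.74) and Saa2 (-3.98), which was at most 0.242 CPM in any library. Antigen presentation gave 0 calls of 24 and interferon-stimulated genes 1 of 47 (Oas3, -1.85). Lymphocyte markers gave 1 higher call of 25 (Ighm) and the sum of all 25 was 7.81 to 12 CPM in Ctrl_RT and 14.2 to 23.4 CPM in MetR_RT. Ighm alone stood at 2.9 to 5.31 CPM and at 7.41 to 14.5 CPM, and without it the sums overlapped between groups. Of the 25 markers, 20 had values above 0.

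In whole tissue, fewer cells of a type and less RNA per cell cannot be told apart. Without the muscle-rich Ctrl_RT replicates 3 and 5, lower calls were 9 for collagens, 8 for complement, 5 for matrix proteins, 3 for fibroblasts and 2 for macrophages, and the medians were -0.495, -0.625, -0.299, -0.527 and -0.46. Without Ctrl_RT replicate 5 alone, macrophages and matrix proteins had 6 lower calls each, and without MetR_RT replicate 3 macrophages had 6. With counts thinned to equal depth, matrix proteins had 7. Chemokines and cytokine receptors had 3 lower calls without either of these libraries. Smooth muscle and pericyte markers had 1 without Ctrl_RT replicates 3 and 5, where Acta2 kept its call, 1 with groups from the treatment tag and 2 with thinned counts. Acute phase and iron proteins had 3 without Ctrl_RT replicates 3 and 5. The part of muscle RNA in these falls was not tested. Endothelial markers had 2 lower calls of 24 (Lyve1 and Plvap, -0.82) and a median of -0.03.

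**Figure D3:**
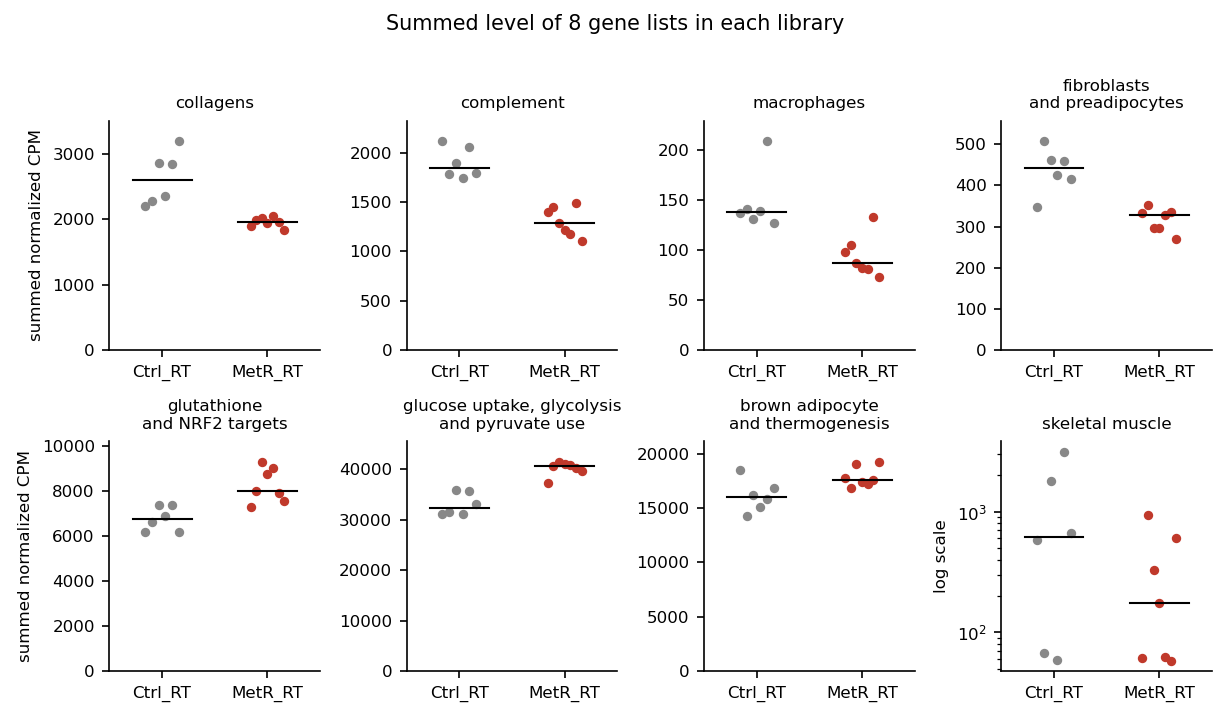
Summed normalized CPM of 8 gene lists in each Ctrl_RT (grey) and MetR_RT (red) library with the group median as a black line, on axes from 0 except skeletal muscle, which is on a log scale. Collagens (2211 to 3190 against 1843 to 2052 CPM) and complement (1741 to 2112 against 1109 to 1493 CPM) do not overlap between groups, whereas skeletal muscle overlaps and varies most within Ctrl_RT.

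Growth factor and Wnt genes gave mostly lower calls. Igf1, insulin-like growth factor 1, stood at 10.8, 12.3 and 20.6 CPM in Ctrl_RT and at 3.17, 3.93 and 5.41 CPM in MetR_RT (-1.69 ± 0.20, adjusted p = 3.95e-06). Its binding proteins Igfbp6 (-1.19), Igfbp4 (-0.93) and Igfbp5 (-0.59) fell too, and the sorting receptor Sorl1 rose (1.02 ± 0.13), which made 4 lower and 1 higher of 34. Of 46 tested Wnt pathway genes of 47, 6 were called lower (1.97% of all genes were) and 1 higher (0.535%). The ligand Wnt11 stood at 9.87, 11.1 and 14.3 CPM against 3.59, 4.41 and 5.36 CPM (-1.34 ± 0.14, adjusted p = 7.36e-07). The receptor Fzd2 was also called lower. The ligand Wnt6 (-1.68) and the secreted antagonists Sfrp2, Sfrp4 (-2.13) and Wif1 (-3.51) fell from low levels. Without the muscle-rich Ctrl_RT replicates 3 and 5 the lower Wnt calls were 2. Lgr6, an R-spondin receptor, rose from 82.5, 118 and 151 CPM to 196, 207 and 230 CPM (0.86 ± 0.09, adjusted p = 2.01e-06), with no overlap. Secreted factors of brown fat gave 5 lower calls of 36 (Igf1, Clu, Retn, Fgf10 and Fgf1) and 2 higher (Kng2 and Prelp). Of 17 adipokines and white adipocyte genes, Npr3 was higher and Retn and Slc7a10 lower. The adipokine Retn fell by 1.20 on the log2 scale, whereas leptin (Lep, -0.58 ± 0.37) and adiponectin (Adipoq, -0.21 ± 0.08) did not pass, and the natriuretic peptide clearance receptor Npr3 rose (0.70 ± 0.19). Schwann cell and nerve fibre markers gave 2 lower calls of 18 tested, the neurotrophin receptor Ngfr (-1.13) and Ncam1 (-0.65). For Ncam1 (adjusted p = 0.0461), 5 of the 7 MetR_RT libraries lay within the Ctrl_RT range. Its call was lost without any 1 of Ctrl_RT replicates 1, 3, 5 and 6 and MetR_RT replicates 2 to 7. The list had a median of -0.625, and of -0.293 without the muscle-rich Ctrl_RT replicates 3 and 5.

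All mice were killed within the same morning hours. Of 26 clock genes, 3 were called higher (0.535% of all genes were) and 1 lower (1.97%), with a median of 0.10. Nr1d1, the repressor REV-ERB alpha, stood at 55, 80.6 and 88.2 CPM in Ctrl_RT and at 115, 121 and 156 CPM in MetR_RT (0.77 ± 0.09, adjusted p = 2.37e-06), with no overlap. Dbp stood at 3.05, 4.83 and 10.1 CPM against 6.82, 14.3 and 22.4 CPM (1.42 ± 0.34, adjusted p = 0.00912), and 3 MetR_RT libraries lay within the Ctrl_RT range. Nr1d2, REV-ERB beta, rose by 0.66 ± 0.20 (adjusted p = 0.0446). Npas2, which pairs with the activator BMAL1, fell (-0.92 ± 0.23, adjusted p = 0.0132), and the gene of BMAL1, Arntl, did not pass (-0.21 ± 0.21). With groups taken from the treatment tag, 0 clock genes were called higher.

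**Figure D4:**
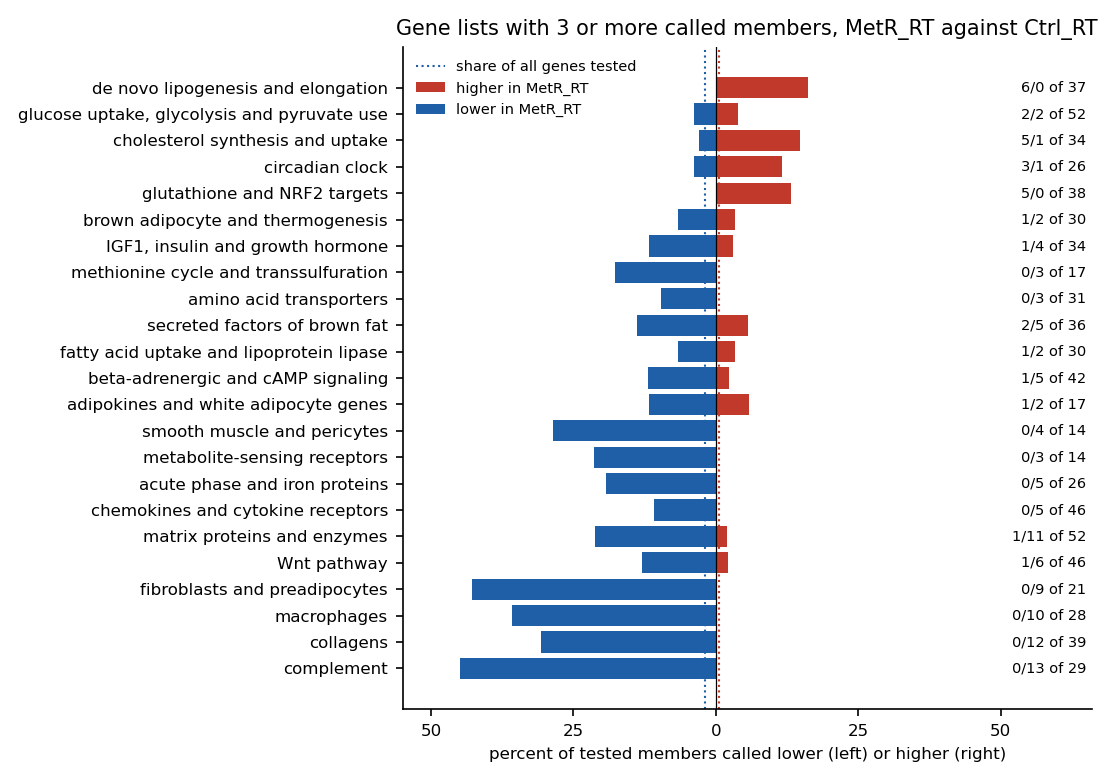
Percent of the tested members of each gene list called lower (blue, to the left) or higher (red, to the right) in MetR_RT, for lists with 3 or more called members, ordered by their median log2 fold change, with the numbers called higher, called lower and tested at the right. Dotted lines mark the shares among all genes tested, 0.535% higher and 1.97% lower.

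The remaining lists gave at most 2 calls each, where 2.5% of all genes were called. Immediate early genes gave 1 higher (Maff, 0.98) and 1 lower (Ier5, -0.66) of 22. Proliferation genes gave 1 higher (Pimreg) and 1 lower (Cenpa, -0.60) of 43, red blood cell genes 1 lower of 7, thyroid hormone genes Me1 and Dio2 of 13, and creatine and calcium cycling Gamt of 19. No member was called among 23 adipogenic regulators, 22 enzymes of branched-chain amino acid breakdown, 36 chaperones and UPR genes, 30 genes of peroxisomes and bile acid synthesis, 78 cytosolic ribosomal proteins or 30 skeletal muscle genes. Of the ribosomal proteins, 74 had values below 0, with a median of -0.17. The branched-chain list pointed the other way as a sum, at 4707 to 5349 CPM in Ctrl_RT and 5381 to 5717 CPM in MetR_RT.

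The same diet in the cold offered a comparison with no library in common. MetR_CE against Ctrl_CE called 1.64% of the genes tested, 115 of them higher and the rest lower. With groups taken from the treatment tag it called 5, of which 0 were higher, so the values that follow rest on the titles. Of the 599 genes called at room temperature, 486 (81.1%) had the same sign in the cold, against 59.2% of all genes tested. In the same direction, 100 (16.7%) were also called there, against 1.38% of all genes tested, and 0 in the opposite one. In the cold, 12 of 39 collagens, 12 of 29 complement genes, 9 of 28 macrophage markers and 8 of 21 fibroblast markers were called lower. Of all genes tested, 1.16% were called lower there. Col1a1 was lower by -1.42 and C4b by -1.43 on the log2 scale.

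The test of the difference between the diet effects called 89 genes, 0.372% of those tested, and 47 of these were among the 599. The test reuses the room temperature libraries, so that this overlap is not independent of the calls. Adcy5 fell at 22 °C and had a log2 difference of 0.05 ± 0.22 in the cold (difference adjusted p = 0.000435), where its control mean was 3.72 CPM. Hcar2 (0.15 ± 0.26 in the cold, adjusted p = 0.00361), Hcar1 (-0.12 ± 0.20, adjusted p = 0.0168) and Car3 (-0.28 ± 0.31, adjusted p = 0.0215) also fell at 22 °C and were not called in the cold. In Ctrl_CE their means, 1.06, 6.78 and 131 CPM, were already below those of MetR_RT, 1.54, 13.5 and 152 CPM. Mthfd2 (-0.43 ± 0.33 in the cold, adjusted p = 0.0117), Elovl3 (-0.02 ± 0.12, adjusted p = 0.0121), Lgr6 (-0.11 ± 0.09, adjusted p = 0.000435) and Nr1d1 (-0.02 ± 0.08, adjusted p = 0.00146) rose with the diet at 22 °C and were not called in the cold. Mean Lgr6 was 117 CPM in Ctrl_RT, 212 CPM in MetR_RT and 461 CPM in Ctrl_CE, and mean Nr1d1 76.1, 129 and 128 CPM. Mean Mthfd2 was 4.22 CPM in Ctrl_RT, 18.6 CPM in MetR_RT, 50.9 CPM in Ctrl_CE and 38 CPM in MetR_CE. In Ctrl_CE replicate 3 Mthfd2 was 4.7 CPM, below the 29.9 to 73.9 CPM of the other Ctrl_CE libraries. Mean Elovl3 was 331, 598, 1501 and 1482 CPM in the same order. With groups from the treatment tag, which also moves cold libraries, 1 gene was called for this difference, and with all 27 iBAT libraries in the fit 110 were.

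**Figure D5:**
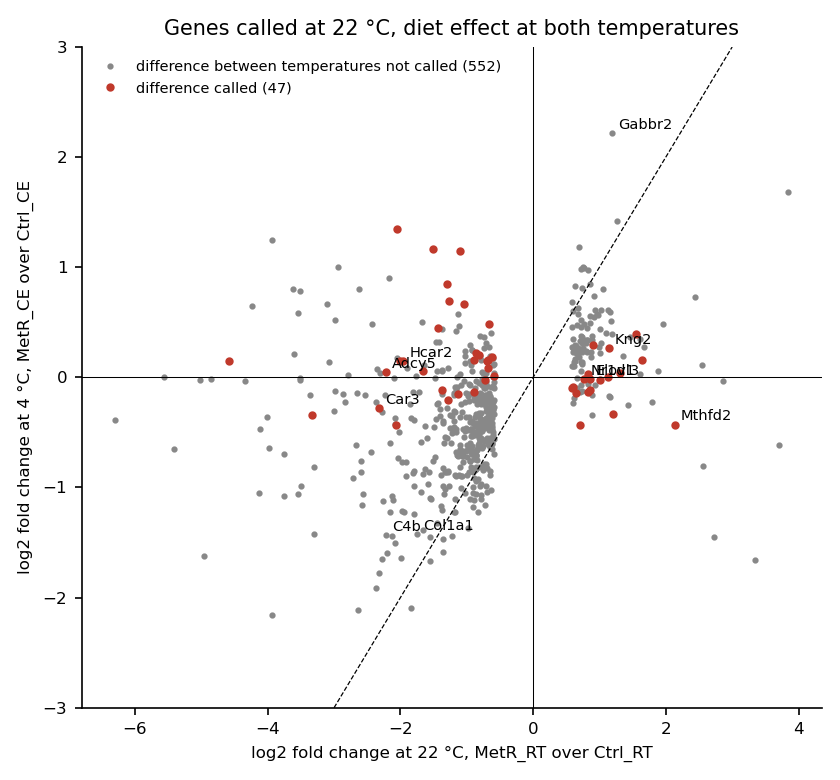
Log2 fold change of the diet at 4 °C (vertical) against that at 22 °C (horizontal) for the 599 genes called at 22 °C, with the 47 whose difference between temperatures was called in red and the line of equal effects dashed. Col1a1 (-1.75 and -1.42) lies near the dashed line, whereas Adcy5, Hcar2, Car3 and Mthfd2 lie between -0.43 and 0.15 on the vertical axis.

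In iWAT of the same mice the diet effect had the same sign for 489 of the 599 genes (81.6%), against 59.3% of all genes. The test of the difference between the depots called 1134 of 26125 genes (4.34%), 96 of them among the 599, and it reuses the iBAT libraries that gave the 599, so that this overlap is not independent of the calls either. Lgr6 (0.86 in iBAT and 5.41 in iWAT), Kng2 (1.14 and 4.41) and Gm15241 (1.17 and 3.92) rose in both, with larger values in iWAT (adjusted p = 0.00167, 0.00219 and 0.0303 for the differences). Dio2 (-0.98 and 2.30, adjusted p = 0.00197) and Fabp3 (-0.74 and 4.22, adjusted p = 0.00182) had opposite signs when grouped by title, and Ucp1 differed by 0.26 in iBAT and 3.61 in iWAT (adjusted p = 0.016). Hmox1 was higher in iBAT (0.88) with a value of -1.96 in iWAT (adjusted p = 0.000333). Car3 (-2.32 and -0.29, adjusted p = 0.00046) and Igf1 (-1.69 and -0.57, adjusted p = 0.0038) fell further in iBAT.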

How the data were processed

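Libraries of polyadenylated RNA were made from iBAT and iWAT, and the authors deposited a table of raw counts per gene, with no normalization. Per the labels and the methods, reads were aligned with STAR (2.7.9a) and both featureCounts (2.0.3) and Salmon (1.9.0) are named for counting. Which of these made the table is not settled here, and its values were whole numbers. Columns were matched to samples by library number, and groups were taken from the sample titles. The label of a treatment tag disagrees with the titles for a run of iBAT libraries, so that grouping was run as an alternative. The study left out 1 Ctrl_CE library of iBAT. Replicate 5 was taken as that library from earlier work on these data, which was not checked here, and 26 iBAT libraries stayed in the fit. The fit with all 27 was an alternative.

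Genes with a total of at least 10 counts were tested with edgeR (4.0.16, R 4.3.3) by its quasi-likelihood test with TMM factors, for diet, temperature and their interaction. A call needed a Benjamini-Hochberg adjusted p under 0.05 and a change of 1.5-fold or more. A second fit over 27 libraries compared the diet effect between depots and treated them as independent, although they came from the same mice, and limma voom (3.58.1) with the mouse as a block was an alternative. Each SE is the absolute log2 fold change divided by the square root of the F statistic of the quasi-likelihood test, and is approximate. Levels are CPM after TMM. Library measures were compared by exact two-sided permutation tests over 1716 assignments. Each script that tested many genes was tested on simulated data.

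The 49 gene lists and the members described were chosen with earlier results of these data known. Named genes are the 12 highest and 12 lowest called genes with a mean of at least 1 CPM in the higher group, the 10 with the smallest p, up to 4 called members of each list, every member where a list had 5 or fewer calls in a direction, and a set named whether called or not. Alternatives were other size factors, DESeq2 (1.42.0) with and without apeglm (1.24.0), other filters, other sets of libraries, a replicate block, a test against the fold threshold, thinned counts and each replicate left out. The fit without the muscle-rich Ctrl_RT replicates 3 and 5 was chosen after seeing the data. Promoter sequences came from RefSeq on GRCm38.p6. No batch was given in the labels used, and libraries of 1 group differed beyond counting noise in every pair. Some genes named by the rule are not reported here.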

Additional observations from a re-analysis of the deposited data

Results flagged for a closer look

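In 35 of 424 group values examined (8.25%), 1 library lay far from the others of its group, where chance gives about 1 in 20. Values are normalized CPM. Ctrl_RT replicate 1 was the highest of its group for Pla2g2e (1.32), Fabp3 (376) and Nnmt (21.5). Ctrl_RT replicate 1 was the lowest of its group for the summed de novo lipogenesis and elongation list (87400). Ctrl_RT replicate 2 was the highest of its group for Prlr (2.75), Gdf15 (0.688) and Adipoq (659). Ctrl_RT replicate 3 was the highest of its group for Mogat1 (10.2), Igfbp6 (23.6) and Wnt6 (1.67). Ctrl_RT replicate 4 was the highest of its group for Wnt11 (14.3) and Igf1 (20.6). Ctrl_RT replicate 5 was the highest of its group for Dbp (10.1), Alb (38.2), Serpina3k (5.15), Apoa1 (5.82), Mat1a (4.95), C6 (0.472), Gpnmb (7.55) and the summed macrophages list (209). Ctrl_RT replicate 6 was the lowest of its group for Hcar2 (2.66). MetR_RT replicate 1 was the highest of its group for Car3 (224) and Hcar1 (22.4). MetR_RT replicate 1 was the lowest of its group for the summed glucose uptake, glycolysis and pyruvate use list (37200). MetR_RT replicate 2 was the highest of its group for Cox7a1 (356). MetR_RT replicate 3 was the highest of its group for Prlr (4.31). MetR_RT replicate 4 was the highest of its group for Nr4a3 (3.26). MetR_RT replicate 5 was the highest of its group for Vil1 (8.54), Alb (0.913), Wif1 (0.0537) and Timp1 (0.43). MetR_RT replicate 6 was the highest of its group for Mycl (3.21), Ccl6 (4.36) and the summed antigen presentation list (1670). MetR_RT replicate 7 was the highest of its group for the summed Schwann cells and nerve fibres list (177).

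The diet effect differed between temperatures by the interaction test, and each value is the log2 effect at 4 °C minus that at 22 °C. It was above 0 for Car3 (2.04), Adcy5 (2.27), Hcar2 (2.11), Hcar1 (1.26), Slc1a3 (0.61) and Steap4 (0.97). It was below 0 for Mthfd2 (-2.56), Pimreg (-1.49), Vil1 (-1.15), 6820408C15Rik (-1.27), Pla2g2e (-1.54), Kng2 (-0.87), Lgr6 (-0.97), Nr1d1 (-0.78), Prelp (-0.61), Elovl3 (-0.87), Got1 (-0.79), Hsd17b7 (-0.69), Acox2 (-1.03) and Npr3 (-1.13).

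The diet effect also differed between depots, and each value is the log2 effect in iBAT minus that in iWAT. It was above 0 for Lrrc8b (1.36) and Hmox1 (2.81). It was below 0 for Gm15241 (-2.77), Alb (-5.67), Apoa1 (-3.64), ENSMUSG00000120173.1 (-1.92), Serpina3n (-1.39), Car3 (-2.05), Kng2 (-3.29), Pla2g16 (-0.80), Wnt11 (-1.19), Arrb1 (-0.59), Lgr6 (-4.57), Scarb1 (-0.66), Dio2 (-3.31), Fabp3 (-4.98), Gng7 (-0.77), Ffar2 (-1.31), Nnmt (-1.60), Dgat2 (-1.29), G0s2 (-1.13), Ppp1r3g (-3.70), Igf1 (-1.13), Retn (-1.53), Fgf1 (-1.81), C4b (-1.13), Trf (-1.13), Trpv1 (-0.92) and Lmod1 (-1.73).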

How the results depend on the processing

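The number of genes called at room temperature (599) stayed between 433 and 637 under every alternative but one. The exception, glmTreat, which tests against the fold threshold, called 39, and it called 0 of the cold comparison (791 genes had an unadjusted p under 0.05 in that test, and DESeq2 called 479), 1 of the interaction and 15 of the depot difference. Leaving out 1 library gave 475 to 606 calls at room temperature, 376 to 403 in the cold, 58 to 110 for the interaction, with 58 without Ctrl_RT replicate 4 and 59 without MetR_RT replicate 3, and 944 to 1095 for the depots. Grouping by the treatment tag gave 462, 5, 1 and 1171 calls in the same order. With Ctrl_CE replicate 1 thereby in MetR_RT, Dio2 (0.26) and Nnmt (0.69) turned positive. The interaction gave 198 calls with DESeq2 and 136 with filterByExpr, which tests fewer genes. For the depots DESeq2 called 609 higher and 837 lower, where edgeR called 361 and 773.

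With the replicate number as a replicate block, 479 genes were called at room temperature, 378 in the cold and 68 for the interaction. Correlations of same-numbered libraries ran from -0.522 to 0.38 and 0 of 6 pairs matched best by their own number, so the numbers name libraries and pair no mice. Without the muscle-rich Ctrl_RT replicates 3 and 5, 466 genes were called, 360 of them shared with the 599. The causes of these changes were not tested. MetR_RT libraries were shallower, and low genes are the least certain.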
